A study of Drosophila melanogaster with 16 samples.

Results

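The integrin subunit genes of the Drosophila melanogaster midgut and rhea, the talin gene, were followed across 4 genotypes. The members were named as 8 genes (scb, mys, Itgbn, mew, if, ItgaPS4, ItgaPS5 and rhea), with earlier results of these data known. Every probe set whose only gene symbol is one of these names was then taken, by name alone. This gave 10 probe sets for the 8 genes, of 18769 probe sets tested and of 11982 genes with a probe set of their own. Genes mys and mew had 2 probe sets each, called brighter and dimmer here by their mean signal, and the others had 1.

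The midguts were of female flies in 4 groups of 4 arrays. The first group carried Raf, a kinase, in a gain-of-function form, together with a dominant-negative form of the receptor Notch (RafGOF NotchDN). The second carried the same Raf form with the intracellular domain of Notch (RafGOF NotchIC), the third carried RafGOF alone, and the fourth was wild type (WT). The labels call the transgenes overexpressed. All 3 transgenic groups thus share RafGOF, and no group had a Notch transgene without it. The sources used here do not give the driver that expressed the transgenes, the age of the flies or the number of guts per array. The series title speaks of intestinal stem cells, whereas the tissue label is the midgut, which holds enterocytes, enteroendocrine cells, progenitors and the visceral muscle around them. Whether the 4 arrays of a group came from separate animals is not labelled, and p-values cover the spread between these arrays, which may be technical.

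Integrins are transmembrane receptors made of an alpha and a beta subunit that join cells to the extracellular matrix. Talin binds the cytoplasmic tail of the beta subunit and links it to the actin cytoskeleton. In the fly, mys encodes the beta subunit betaPS, which is used in most tissues, and Itgbn encodes betanu, found mainly in the midgut. The alpha subunits alphaPS1 (mew), alphaPS2 (if) and alphaPS3 (scb), with the products of ItgaPS4 and ItgaPS5, pair with a beta subunit. In the adult gut, integrins are known to hold intestinal stem cells to the basement membrane between the epithelium and the visceral muscle.

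All signals are log2 values after RMA, so that a difference of 1 is a 2-fold difference. A probe set was called where the limma adjusted p, over all 18769 probe sets of a comparison, was under 0.05 (two-sided). Array medians lay between 5.48 and 5.70 (log2), and arrays of the same group correlated at 0.979 to 0.995 across probe sets. The 4 arrays numbered 2, 1 in each group, stood apart. On the first component of the deviations from the group means they scored 0.411 to 0.445, against -0.224 to -0.0347 on the other 12 arrays. Member calls, and calls of other named genes that were lost without these 4 arrays, are therefore also given without them. No probe set bore the symbol of Raf or Notch alone, so that the labelled genotypes were not checked on the targeted genes.

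The tissue label was checked on marker lists. The defining digestive enzyme genes of enterocytes were among the brightest, with a mean of 14.56 (log2) for alphaTry, and the progenitor marker esg averaged 9.64. The summed linear signal of 7 progenitor markers was 3026 to 6759 in RafGOF NotchDN, 1390 to 1967 in RafGOF NotchIC and 2066 to 4445 in RafGOF, against 740 to 971 in WT. That of 13 visceral muscle markers was 12543 to 15488, 15323 to 18337 and 12900 to 18141 in the same 3 groups, against 19928 to 24004 in WT. In these whole-midgut samples, fewer cells of a type and less RNA per cell cannot be told apart.

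RafGOF was compared with WT to ask what active Raf changed. The alpha subunit genes scb, mew and ItgaPS4, the beta subunit gene mys and the talin gene rhea were higher in RafGOF, on 7 of the 10 probe sets. No member was called lower, against 11.2% of all probe sets called higher and 7.85% called lower. Dim probe sets lower these shares. With only the 11432 probe sets whose mean over all arrays was log2 5 or above, 3608 were called in either direction. Among them 8 members were called, all higher. ItgaPS5, with group means of 4.41 to 4.57, fell out. ItgaPS4, at 4.76 in WT, stayed in through the transgenic groups, where it averaged 5.65 to 6.39. The cut is thus not independent of the rise, and the 3608 are not split by direction, so no enrichment is read from this count. The median difference over the 10 probe sets was 1.43 (log2), against -0.02 over all probe sets. On the same 7 probe sets all 4 RafGOF arrays lay above all 4 WT arrays, which was so for 11.9% of all probe sets. With the replicate number as a block, 8 members were called higher and 1 lower, and 29.4% of all probe sets were called in either direction.

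**Figure D1:**
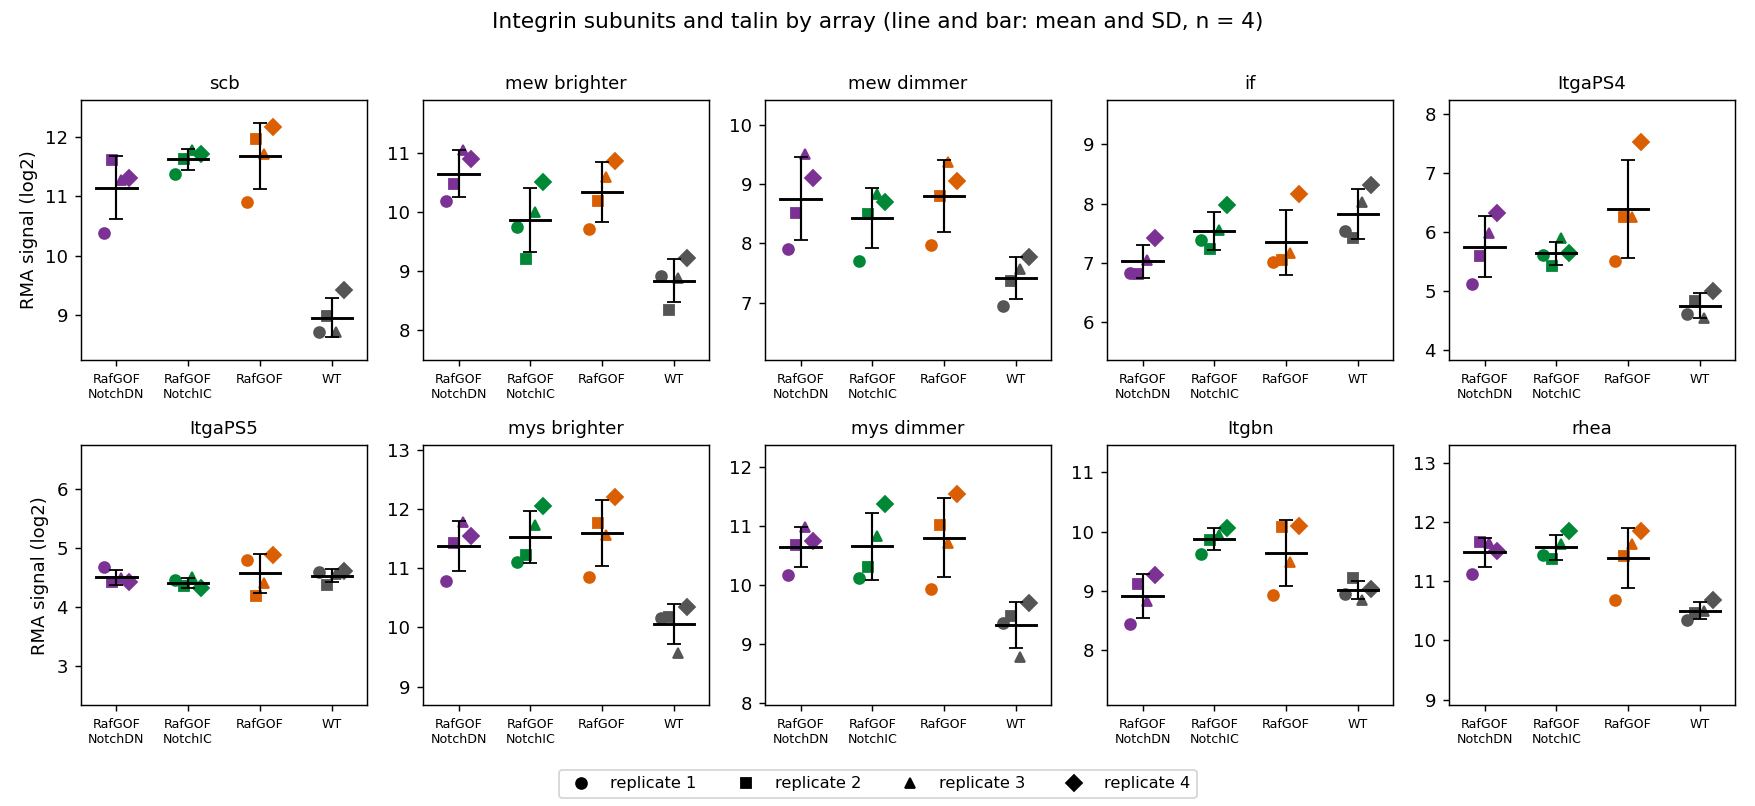
Signal (log2, RMA) of the 10 probe sets on each of the 16 arrays, with a point for each array and a line and bar for the group mean and SD (n = 4). The groups run from RafGOF NotchDN through RafGOF NotchIC and RafGOF to WT. On scb, both mys probe sets and rhea, all transgenic arrays lie above all WT arrays, whereas Itgbn of RafGOF NotchDN lies near WT and ItgaPS5 differs little between groups.

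The alpha subunit gene scb encodes alphaPS3, which is needed in embryonic tissue movements and, with betanu, in the uptake of apoptotic cells by phagocytes. Its signal was 10.38, 11.62, 11.28 and 11.32 in RafGOF NotchDN, 11.38, 11.63, 11.78 and 11.71 in RafGOF NotchIC and 10.90, 11.97, 11.71 and 12.17 in RafGOF, against 8.70, 8.98, 8.71 and 9.42 in WT. Every transgenic array was above the highest WT array. In RafGOF minus WT the difference was 2.73 ± 0.276 (log2, SE, n = 4 arrays per group; adjusted p = 7.1e-06), a 6.64-fold higher signal and the 39th largest rise of the 18769 probe sets. With NotchDN it was 2.19 above WT (4.58-fold, adjusted p = 2.61e-05), and with NotchIC 2.67 (6.35-fold, adjusted p = 1.93e-05). These 3 differences share the WT arrays. They were called in all 17 settings tried, at 2.57 to 2.99, 2.04 to 2.45 and 2.58 to 2.82. Without the 4 arrays numbered 2 they were 2.65, 2.04 and 2.67. The order of levels was RafGOF, RafGOF NotchIC, RafGOF NotchDN and WT, and none of the neighbours in it differed by the test except RafGOF NotchDN and WT. Between the transgenic groups the difference was -0.54 for NotchDN minus RafGOF (95% interval -1.12 to 0.05, adjusted p = 0.655), -0.06 for NotchIC minus RafGOF (-0.65 to 0.52, adjusted p = 0.988) and -0.47 for NotchDN minus NotchIC (adjusted p = 0.386).

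The gene mew encodes alphaPS1, an alpha subunit that binds laminin and acts on the epithelial side of muscle attachments. Its brighter probe set measured 10.18, 10.48, 11.05 and 10.90 in RafGOF NotchDN, 9.74, 9.21, 10.01 and 10.51 in RafGOF NotchIC and 9.71, 10.19, 10.60 and 10.86 in RafGOF, against 8.92, 8.35, 8.88 and 9.22 in WT. All arrays of RafGOF NotchDN and RafGOF were above WT, while the lowest RafGOF NotchIC array, replicate 2, fell just under the highest WT array. The difference from WT was 1.81 in RafGOF NotchDN (3.51-fold, adjusted p = 0.000253), 1.03 in RafGOF NotchIC (2.04-fold, adjusted p = 0.0287) and 1.50 in RafGOF (2.83-fold, adjusted p = 0.00154). The first and the last were called in all 17 settings, and without the arrays numbered 2 the 3 values were 1.70, 1.08 and 1.39. The call with NotchIC was lost in 6 of 17 settings, with adjusted p up to 0.0903, each time on leaving out 1 array: RafGOF NotchIC replicate 1, 3 or 4 (1.07, 0.98 and 0.81) or WT replicate 1, 2 or 3 (1.05, 0.86 and 1.04).

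The dimmer mew probe set measured 7.90, 8.52, 9.52 and 9.10 in RafGOF NotchDN, 7.70, 8.49, 8.83 and 8.70 in RafGOF NotchIC and 7.97, 8.81, 9.38 and 9.06 in RafGOF, against 6.94, 7.36, 7.57 and 7.77 in WT. Replicate 1 was the lowest array in all 4 groups. It was higher than WT by 1.35 in RafGOF NotchDN (adjusted p = 0.0111) and 1.39 in RafGOF (adjusted p = 0.0102), and the value of 1.02 in RafGOF NotchIC did not pass (adjusted p = 0.0725). Without the 4 arrays numbered 2 neither of the called differences passed (1.41 with adjusted p = 0.0511, and 1.37 with adjusted p = 0.0619). Without RafGOF NotchIC replicate 1 the NotchIC difference passed (1.27, adjusted p = 0.0375). It also passed with only both groups fitted (adjusted p = 0.0274) and with the replicate block (adjusted p = 0.000105), though these arrays were not taken as paired. The probe sets of mew thus had the same direction against WT in all 3 groups.

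Between the Notch groups the brighter mew probe set was at 0.78 ± 0.291 (log2, SE; 95% interval 0.17 to 1.40) for NotchDN minus NotchIC and did not pass (adjusted p = 0.124). It passed with the replicate block (adjusted p = 0.0046) and with array weights (0.97, adjusted p = 0.00688). It also passed at 1 (log2) without RafGOF NotchIC replicate 4 (adjusted p = 0.0463). The dimmer one was at 0.33 (adjusted p = 0.693).

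The alpha subunit alphaPS2, encoded by if, is known from muscle, where it pairs with betaPS at attachment sites. Its signal was 6.83, 6.80, 7.05 and 7.41 in RafGOF NotchDN, 7.39, 7.23, 7.55 and 7.98 in RafGOF NotchIC and 7.01, 7.04, 7.16 and 8.16 in RafGOF, against 7.54, 7.42, 8.02 and 8.31 in WT. Every RafGOF NotchDN array was below every WT array, though only just (7.41 against 7.42 at the closest), and the other groups overlapped WT. It fell in RafGOF NotchDN by 0.80 on the log2 scale (SE 0.26, a 1.74-fold lower signal, adjusted p = 0.0399). That call held in 11 of 17 settings and was lost without the 4 arrays numbered 2 (-0.86, adjusted p = 0.0656), without RafGOF NotchDN replicate 1, 2 or 3 (-0.73, -0.72 and -0.80) and without WT replicate 3 or 4 (-0.73 and -0.63). RafGOF minus WT was -0.48 (95% interval -1.03 to 0.08, adjusted p = 0.251). It passed with the replicate block (adjusted p = 0.00395) and with array weights (-0.67, adjusted p = 0.0231). It also passed at -0.75 without RafGOF replicate 4, the one high array (adjusted p = 0.0273). RafGOF NotchIC minus WT was -0.28 (-0.84 to 0.27, adjusted p = 0.559), and NotchDN minus NotchIC was -0.51 (adjusted p = 0.296, 0.00457 with the block).

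Muscle markers were called lower than WT in each transgenic group. The if differences from WT were -0.80 in RafGOF NotchDN, -0.48 in RafGOF and -0.28 in RafGOF NotchIC, of which the main fit called the first. Of 13 visceral muscle genes 9 were lower in RafGOF than in WT, 10 in RafGOF NotchDN and 7 in RafGOF NotchIC, and none was higher. Of all genes, 10.1%, 12.1% and 6.77% were lower in the same comparisons. Within groups, the deviations of if and of the log2 muscle sum correlated at 0.662 over the 16 arrays, and those of if and of a 10-gene hemocyte sum at 0.916, as a description of arrays that share their extract and normalisation. Such values were not particular to if. ItgaPS5 was at 0.715 with the muscle sum, and ItgaPS4 at 0.717 with the hemocyte sum. The remaining probe sets had -0.243 to 0.262 with the muscle sum and 0.305 to 0.612 with the hemocyte sum. On RafGOF replicate 4 the hemocyte sum was 10.77 (log2), against 9.81 to 9.95 on the other RafGOF arrays. Of the 10 hemocyte genes 5 had a mean under 5 (log2). The brightest, crq, averaged 9.18 (log2), so that this gene made up a large part of the linear sum. The group sums were 907 to 1078 in RafGOF NotchDN, 1146 to 1427 in RafGOF NotchIC and 897 to 1744 in RafGOF, against 1205 to 1592 in WT. The part of muscle and hemocytes in the values of if was not tested.

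ItgaPS4 and scb are neighbouring genes in the RefSeq annotation of the Release 6 assembly, and both encode alpha subunits of the alphaPS3 type. The ItgaPS4 signal was 5.13, 5.59, 5.98 and 6.33 in RafGOF NotchDN, 5.61, 5.43, 5.90 and 5.65 in RafGOF NotchIC and 5.52, 6.26, 6.26 and 7.53 in RafGOF, against 4.62, 4.84, 4.55 and 5.01 in WT. All transgenic arrays exceeded all WT arrays, and RafGOF was the most variable group, with an SD of 0.83. All 4 WT arrays lay below the array medians, so that the folds over WT are folds of a signal that is low in WT. The difference from WT was 1.64 ± 0.324 in RafGOF (log2, SE; 3.11-fold, adjusted p = 0.00182), which was called in all 17 settings and was 1.71 without the arrays numbered 2. It was 1 (log2) in RafGOF NotchDN (2-fold, adjusted p = 0.0379) and 0.89 in RafGOF NotchIC, where it did not pass (adjusted p = 0.0888). The NotchIC difference passed in 3 of 17 settings. These were only both groups fitted (adjusted p = 0.00264), array weights (adjusted p = 0.0254) and the replicate block (adjusted p = 0.0143), though these arrays were not taken as paired. The NotchDN call held in only 9 of 17 settings. It was lost without the 4 arrays numbered 2 (1.09, adjusted p = 0.101), with the arrays centred on their medians (1.01, adjusted p = 0.0552), without RafGOF NotchDN replicate 2, 3 or 4 (1.06, 0.93 and 0.81) and without WT replicate 1, 2 or 3 (0.96, 1.03 and 0.93).

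The remaining alpha subunit gene, ItgaPS5, lay below the median signal of the arrays. It measured 4.69, 4.43, 4.49 and 4.42 in RafGOF NotchDN, 4.46, 4.36, 4.51 and 4.33 in RafGOF NotchIC and 4.80, 4.19, 4.41 and 4.89 in RafGOF, against 4.59, 4.37, 4.57 and 4.61 in WT. The groups overlapped throughout. Differences from WT were -0.03 in RafGOF NotchDN, -0.12 in RafGOF NotchIC and 0.04 in RafGOF (95% interval -0.24 to 0.32), and none passed (adjusted p = 0.937, 0.631 and 0.899).

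**Figure D2:**
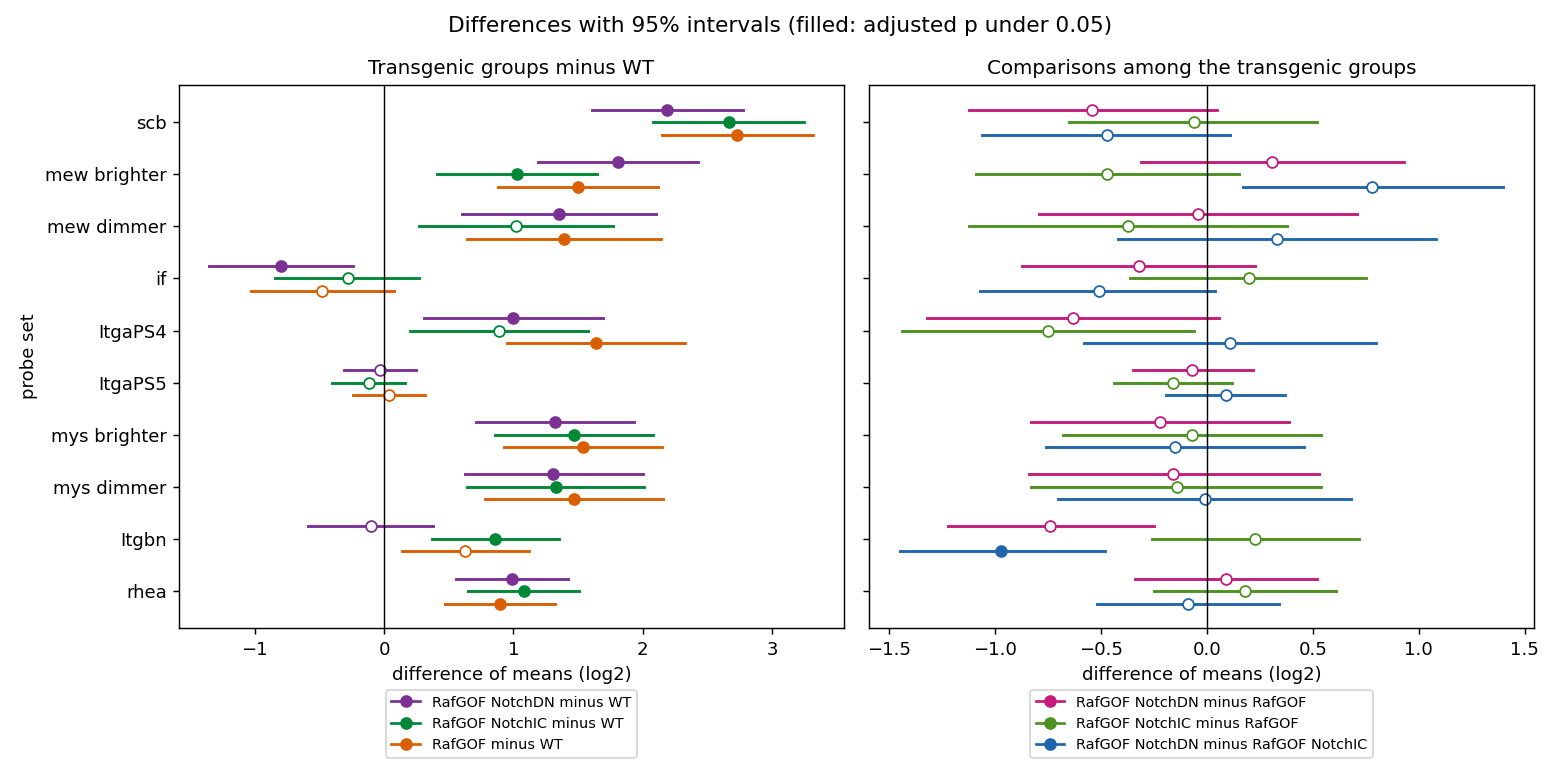
Difference in signal (log2) of the 10 probe sets in each comparison, with 95% intervals from the limma fit over 16 arrays and filled points for calls. The differences from WT run from -0.80 for if in RafGOF NotchDN to 2.73 for scb in RafGOF, and those between transgenic groups from -0.97 to 0.78.

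The beta subunit gene mys was higher than WT in all 3 transgenic groups. Its brighter probe set measured 10.79, 11.42, 11.78 and 11.54 in RafGOF NotchDN, 11.11, 11.23, 11.73 and 12.05 in RafGOF NotchIC and 10.86, 11.77, 11.57 and 12.20 in RafGOF, against 10.16, 10.17, 9.56 and 10.35 in WT. No transgenic array overlapped WT. The difference from WT was 1.32 with NotchDN (2.5-fold, adjusted p = 0.00297), 1.47 with NotchIC (2.77-fold, adjusted p = 0.00312) and 1.54 ± 0.286 with RafGOF alone (log2, SE; 2.91-fold, adjusted p = 0.00111). The identifier of this probe set marks it as one that may also bind other transcripts.

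The dimmer mys probe set, whose identifier has no such mark, measured 10.17, 10.67, 10.98 and 10.74 in RafGOF NotchDN, 10.11, 10.31, 10.82 and 11.36 in RafGOF NotchIC and 9.93, 11.01, 10.71 and 11.54 in RafGOF, against 9.35, 9.47, 8.78 and 9.70 in WT. Here too the lowest transgenic array was above the highest WT array. The differences from WT were 1.31, 1.33 and 1.47 in the same order of groups (adjusted p = 0.00727, 0.0125 and 0.00374). All 6 of these mys differences were called in every setting run, and without the arrays numbered 2 they were 1.35 to 1.61. The deviations of both mys probe sets from their group means correlated at 0.984 over the 16 arrays. Between the transgenic groups the mys differences lay between -0.22 and -0.01, and none passed.

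Itgbn, the other beta subunit gene, measured 8.43, 9.11, 8.82 and 9.27 in RafGOF NotchDN, 9.63, 9.85, 9.95 and 10.06 in RafGOF NotchIC and 8.92, 10.08, 9.48 and 10.09 in RafGOF, against 8.95, 9.21, 8.85 and 9.03 in WT. All RafGOF NotchIC arrays were above all WT and all RafGOF NotchDN arrays. RafGOF NotchDN overlapped WT, and in RafGOF only replicate 1 was as low as WT. The order was RafGOF NotchIC (9.87 ± 0.18, SD, n = 4), RafGOF (9.64 ± 0.56), WT (9.01 ± 0.15) and RafGOF NotchDN (8.91 ± 0.37), and no neighbours in that order differed by the test (adjusted p = 0.858, 0.0682 and 0.856).

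In RafGOF NotchIC the Itgbn signal was 0.86 ± 0.229 (log2, SE) above WT, a 1.82-fold higher signal (adjusted p = 0.0207). This call held in 14 of 17 settings and was lost without RafGOF NotchIC replicate 3 or 4 (0.84 and 0.80) or WT replicate 3 (0.81), with adjusted p up to 0.0616. Without the arrays numbered 2 it was 0.93 (adjusted p = 0.0363). In RafGOF the value was 0.63 above WT (95% interval 0.14 to 1.12) and did not pass (adjusted p = 0.0682). It passed with the replicate block (adjusted p = 0.00478) and with array weights (0.61, adjusted p = 0.0112). It also passed with only probe sets of log2 5 or above (adjusted p = 0.0497), and at 0.87 without RafGOF replicate 1 (adjusted p = 0.00459). In RafGOF NotchDN it was at -0.10 (-0.59 to 0.38, adjusted p = 0.856).

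RafGOF NotchDN was compared with WT for all members too, and 7 of the 10 probe sets were called higher and 1 lower. The background in that comparison was 11.2% higher and 9.28% lower. The median over the members was 1.16 (log2), against -0.02 over all probe sets. Without the 4 arrays numbered 2 the calls came to 5 of 10 in all. In RafGOF NotchIC minus WT, 6 were called higher and 0 lower, against 7.5% and 5.24% of all probe sets. The members' median there was 1.02, against -0.03 over all probe sets. By gene, scb, mys, mew and rhea were called higher in each of the 3 transgenic groups, ItgaPS4 in RafGOF NotchDN and RafGOF, and Itgbn in RafGOF NotchIC.

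Talin is encoded by rhea, and its loss in the fly resembles loss of integrin. Its signal was 11.13, 11.66, 11.65 and 11.52 in RafGOF NotchDN, 11.45, 11.37, 11.63 and 11.85 in RafGOF NotchIC and 10.69, 11.42, 11.63 and 11.85 in RafGOF, against 10.35, 10.46, 10.50 and 10.69 in WT. All transgenic arrays were above the highest WT array, which RafGOF replicate 1 exceeded by less than the rounding of these values. The difference from WT was 0.99 in RafGOF NotchDN (1.98-fold, adjusted p = 0.00181), 1.08 in RafGOF NotchIC (2.11-fold, adjusted p = 0.0023) and 0.90 ± 0.2 in RafGOF (log2, SE; 1.86-fold, adjusted p = 0.00424). These were called in all 17 settings, and without the arrays numbered 2 they were 0.92, 1.13 and 0.88. Between the transgenic groups rhea was at 0.09, 0.18 and -0.09 for NotchDN minus RafGOF, NotchIC minus RafGOF and NotchDN minus NotchIC, and none passed (adjusted p = 0.997, 0.88 and 0.867).

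The members did not move by one amount. In RafGOF minus WT, the change of scb exceeded that of mys (brighter) by 1.19, that of mew (brighter) by 1.23 and that of rhea by 1.83 (log2), taken as differences of changes within arrays. The change of mew exceeded that of if by 1.98. The 4 RafGOF arrays did not overlap the 4 WT arrays in any of these within-array differences. These pairs were chosen after their values were seen and are given as a description.

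The Notch transgenes were compared with RafGOF alone to ask what blocking or activating Notch changed in RafGOF midguts. None of the 10 probe sets passed by limma in RafGOF NotchDN minus RafGOF, against 1.09% of all probe sets, and 1 was under 0.05 unadjusted. That background moved with single arrays, from 204 probe sets to as few as 102 without RafGOF replicate 3. The member under 0.05 unadjusted was Itgbn, at -0.74 ± 0.229 (log2, SE; 95% interval -1.22 to -0.25, adjusted p = 0.21). Itgbn passed with the replicate block (adjusted p = 0.0132, where 4.22% of all probe sets were called), with array weights (-0.66, adjusted p = 0.0157) and without RafGOF replicate 1 (-0.98, adjusted p = 0.0286). The 4 RafGOF NotchDN arrays overlapped RafGOF through its replicate 1. ItgaPS4 was at -0.63 (adjusted p = 0.654), the brighter mew probe set at 0.31 (adjusted p = 0.943) and if at -0.32 (adjusted p = 0.913).

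None of the 10 passed by limma in RafGOF NotchIC minus RafGOF either, against 2.34% of all probe sets, and 1 was under 0.05 unadjusted. The background of 440 probe sets was 201 without RafGOF replicate 2 or 3. The member under 0.05 unadjusted was ItgaPS4, at -0.75 (95% interval -1.44 to -0.06, adjusted p = 0.367). Itgbn was at 0.23 (-0.26 to 0.72, adjusted p = 0.858), the brighter mew probe set at -0.47 (adjusted p = 0.64) and if at 0.20.

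Between both Notch groups, RafGOF NotchDN against RafGOF NotchIC, 1 of 10 probe sets was called and it was lower, against 4.09% of all probe sets called lower and 4.64% called higher. Itgbn was lower in RafGOF NotchDN than in RafGOF NotchIC by 0.97 on the log2 scale (SE 0.229, a 1.95-fold lower signal, adjusted p = 0.0145). The highest RafGOF NotchDN array, 9.27, lay below the lowest RafGOF NotchIC array, 9.63, which was so for 5.69% of all probe sets. The call held in all 17 settings, at -1.09 to -0.81 (adjusted p = 0.000535 to 0.0477), and at -1.04 without the arrays numbered 2. With the replicate block, which called 18.6% of all probe sets, 3 members passed, Itgbn and if lower and the brighter mew probe set higher. The change of Itgbn was exceeded by that of the brighter mys probe set by 0.82, and by that of the brighter mew probe set by 1.75, both with arrays that did not overlap, as a description of pairs picked after their values were seen. Of 7 progenitor genes 4 were higher and 1 lower in RafGOF NotchDN than in RafGOF NotchIC, against 6.09% and 5.47% of all genes. Of 13 visceral muscle genes 1 was lower, near that background, and 0 without the arrays numbered 2. The part of progenitors in Itgbn was not tested.

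**Figure D3:**
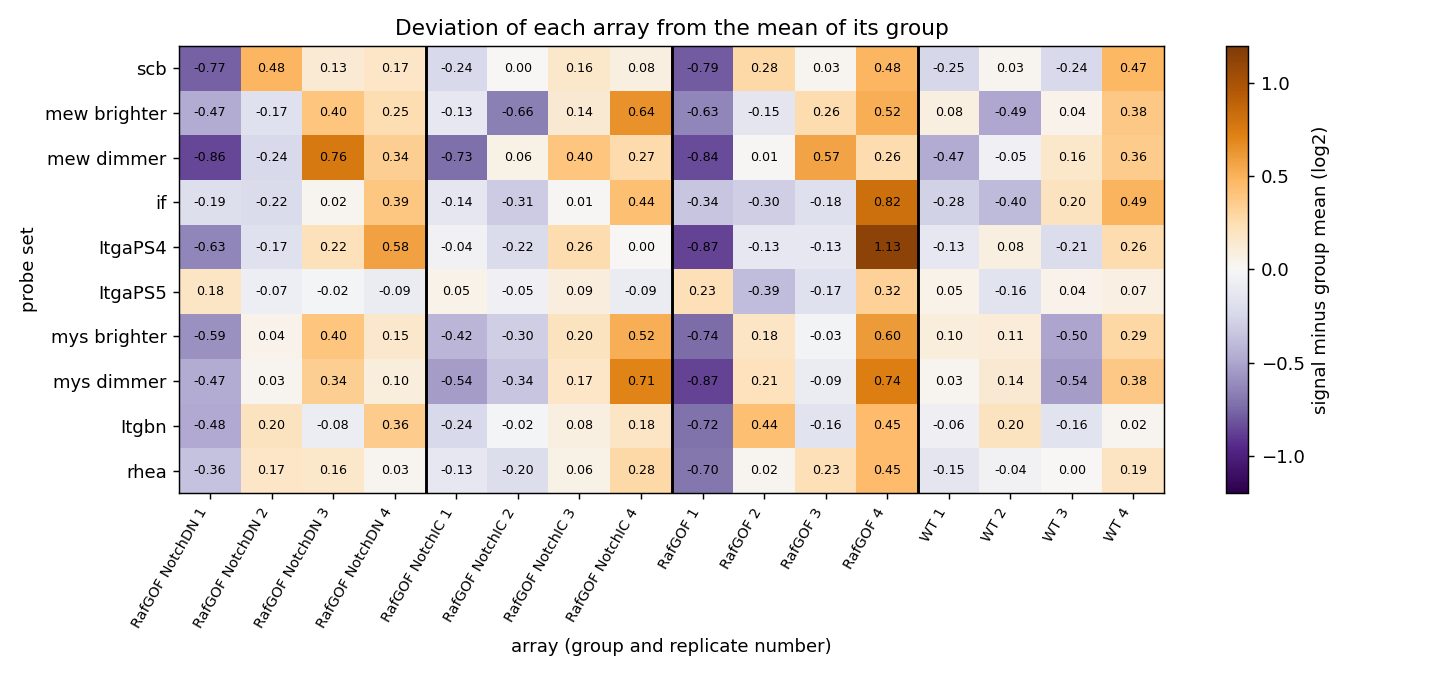
Deviation (log2) of each of the 10 probe sets from its group mean on each of the 16 arrays. RafGOF replicate 1 is low for all probe sets but ItgaPS5 and RafGOF replicate 4 is high for all, as RafGOF NotchDN replicate 1 is low for all but ItgaPS5.

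Within groups most members deviated together. On RafGOF replicate 1 the deviations from the group mean ran from -0.87 to -0.34 (log2) for the 9 probe sets other than ItgaPS5, which was at 0.23. On RafGOF replicate 4 all 10 were above the mean, by 0.26 to 1.13. On RafGOF NotchDN replicate 1 they ran from -0.86 to -0.19 for the same 9, and in WT from -0.54 to 0.49 over all probe sets and arrays. Over the 16 arrays, deviations correlated at 0.856 for scb and Itgbn, 0.852 for scb and rhea, 0.84 for mys (brighter) and rhea and 0.785 for mew (brighter) and if, while ItgaPS5 had values of -0.439 to 0.368 with the other members. These arrays share their extract, so that such values describe the arrays. The deviations of scb and of the summed enterocyte markers correlated at -0.71 and those of ItgaPS4 and the same sum at -0.88. The other members had values of -0.765 to -0.555 with that sum, except ItgaPS5 at -0.035. The enterocyte sum was 63392 to 85811 in RafGOF NotchDN, 47313 to 70664 in RafGOF NotchIC and 35296 to 60366 in RafGOF, against 98987 to 106434 in WT. Its part in the members' values was not tested.

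By Pearson correlation of the log2 signal over the 16 arrays, the genes most like scb among 5288 genes were ash2 and InR (0.972 each), betaTub60D (0.964), CkIIalpha-i3 (0.958) and Ipk2 (0.957). Those most like mys were InR (0.952), Pp1-87B (0.948), 14-3-3epsilon (0.942), ena (0.941) and scb (0.941). For Itgbn they were Sox14 (0.963), MESR3 (0.957), aop (0.953), tmod (0.945) and Pi4KIIalpha (0.94). For rhea they were raw (0.964), Svip (0.959), Efa6 (0.952), mys (0.938) and Paf-AHalpha (0.937). The group differences alone can give such values.

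Integrins work with cytoplasmic partners that tie them to actin and signal from them. Of 27 partner genes listed, 22 had a probe set of their own, and Src42A, Src64B and Rap1 were among those not analysed here. In RafGOF minus WT 8 of the 22 were higher and 2 lower (13 and 2 with the replicate block), against 14.9% and 10.1% of all genes. The partners' median was 0.37, against 0 over all genes. In RafGOF NotchDN minus WT 5 were higher and 2 lower (9 and 2 with the block), against 14.6% and 12.1%, and in RafGOF NotchIC minus WT 7 and 2, against 9.98% and 6.77%. The first and the last of these counts were 8 and 2, and 7 and 1, without the 4 arrays numbered 2, and that for NotchDN was 4 and 1. The NotchIC count depended on single arrays and was 4 in all without RafGOF NotchIC replicate 3, WT replicate 1 or WT replicate 4, and 5 without RafGOF NotchIC replicate 2 or WT replicate 3.

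The partner that changed most was kon, a transmembrane protein needed for muscles to attach and known to bind Grip. Its signal was 6.59, 7.26, 6.92 and 7.97 in RafGOF NotchDN, 9.04, 8.48, 8.77 and 8.29 in RafGOF NotchIC and 8.71, 9.95, 9.55 and 8.76 in RafGOF, against 6.13, 6.61, 6.22 and 6.09 in WT. RafGOF and RafGOF NotchIC lay above both other groups without overlap, as Itgbn did but for 1 RafGOF array. The difference from WT was 2.98 ± 0.299 in RafGOF (log2, SE; 7.9-fold, adjusted p = 6.6e-06) and 2.38 in RafGOF NotchIC (adjusted p = 0.000107). It was 0.92 in RafGOF NotchDN (adjusted p = 0.038), a call lost without RafGOF NotchDN replicate 2 or 4 (0.90 and 0.66), without WT replicate 1, 3 or 4 (0.88, 0.91 and 0.87) and with the arrays centred on their medians (0.93). In RafGOF NotchDN kon fell by 2.06 against RafGOF (adjusted p = 0.00263), the 1 partner of 22 called there (1.37% of all genes), and by 1.46 against RafGOF NotchIC (adjusted p = 0.00545). The first of these was lost when only the arrays of both groups were fitted (adjusted p = 0.0685).

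Vinculin, which binds talin and actin, is encoded by Vinc. Its signal was 9.28, 10.16, 9.87 and 10.07 in RafGOF NotchDN, 10.06, 10.10, 10.27 and 10.31 in RafGOF NotchIC and 9.82, 10.87, 10.33 and 10.72 in RafGOF, against 9.13, 9.31, 8.95 and 8.71 in WT. Only RafGOF NotchDN, through replicate 1, overlapped WT. It was higher than WT by 0.82 in RafGOF NotchDN (adjusted p = 0.0128), 1.16 in RafGOF NotchIC (adjusted p = 0.00258) and 1.41 in RafGOF (adjusted p = 0.000257).

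Of the other called partners, ena, which elongates actin filaments, was higher by 1.21 in RafGOF NotchDN, 1.15 in RafGOF NotchIC and 1.38 in RafGOF, and none of the 3 calls held without the arrays numbered 2 (adjusted p = 0.111, 0.11 and 0.0856). The adaptor parvin, which binds Ilk, was higher by 0.89 in RafGOF NotchIC and 0.99 in RafGOF. Paxillin (Pax) was higher by 1.02 in RafGOF NotchIC and 0.93 in RafGOF, where its arrays overlapped WT. Ilk, the pseudokinase that binds the beta subunit's tail, was higher by 0.63 in RafGOF NotchDN, 0.63 in RafGOF NotchIC and 0.91 in RafGOF, and the first of these did not pass without the arrays numbered 2 (0.52, adjusted p = 0.0535). Fit2, a kindlin, was higher by 0.55 in RafGOF NotchDN and 0.48 in RafGOF, where the call was lost without RafGOF replicate 3 or WT replicate 3 (0.43 and 0.42). The gene ics, whose product is a partner of the PINCH adaptor, was called higher in RafGOF NotchIC and in RafGOF. With single arrays left out, the first call held in 8 of 8 fits, at 0.66 to 0.83. The second held in 3 of 8, at 0.41 to 0.57. Grip and Csk were called lower in each transgenic group. The scaffold gene Grip was at -0.50 in RafGOF NotchDN, -0.43 in RafGOF NotchIC and -0.64 in RafGOF, and Csk, a kinase that inhibits Src kinases, at -0.41, -0.38 and -0.56. Leaving out some single array of the groups compared ended the calls of ena and Csk in RafGOF NotchDN, those of ena, parvin, Pax, Grip and Csk in RafGOF NotchIC and that of Pax in RafGOF, with adjusted p up to 0.144 and no change of direction. Csk also did not pass without the arrays numbered 2 in RafGOF NotchDN (-0.39, adjusted p = 0.0946) or RafGOF NotchIC (-0.34, adjusted p = 0.151).

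In RafGOF NotchIC minus RafGOF none of the 22 partners passed by limma (1 at an unadjusted p under 0.05, and 0 with the replicate block), against 3.01% of all genes. Between both Notch groups 1 was higher and 2 lower with NotchDN (3 and 3 with the replicate block), against 6.09% and 5.47% of all genes. Fit2 was higher by 0.50 (adjusted p = 0.0261), while kon and ics were lower, ics by a log2 difference of -0.53 (adjusted p = 0.0352). Without the arrays numbered 2 Fit2 did not pass (0.47, adjusted p = 0.1). Both the Fit2 and the ics call were lost in several settings, among them renewed quantile normalisation (0.44 with adjusted p = 0.0622, and -0.44 with adjusted p = 0.0862).

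Integrin ligands lie in the basement membrane, which holds laminins, collagen IV and perlecan. All 13 listed genes had a probe set. In RafGOF minus WT 3 were higher and 0 lower, in RafGOF NotchDN minus WT 4 and 0, and in RafGOF NotchIC minus WT 1 and 0. The shares of all genes called higher and lower, given above for the partners, were 14.9% and 10.1%, 14.6% and 12.1%, and 9.98% and 6.77%, so that the NotchIC count in the main fit is no more than the background. That NotchIC count was unstable, at 3 without the arrays numbered 2, 4 with array weights and 5 with the replicate block. It was 0 without RafGOF NotchIC replicate 1 or 2 or WT replicate 1 or 4. Without RafGOF replicate 2, WT replicate 3 or WT replicate 4, the RafGOF count was 1. The ligands' median difference was 0.09, 0.14 and 0.21 in these comparisons.

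The beta chain of laminin, LanB1, measured 9.03, 10.21, 9.30 and 9.15 in RafGOF NotchDN, 8.07, 8.67, 8.01 and 8.26 in RafGOF NotchIC and 8.31, 9.03, 8.31 and 8.48 in RafGOF, against 7.87, 7.97, 7.59 and 7.55 in WT. Replicate 2 was the highest array in every group, and all transgenic arrays were above WT. The difference from WT was 1.67 in RafGOF NotchDN (adjusted p = 8.08e-05) and 0.79 in RafGOF (adjusted p = 0.0277), and without the arrays numbered 2 these were 1.49 and 0.70 and both passed. The RafGOF call was lost without RafGOF replicate 2 (0.62), WT replicate 3 (0.73) or WT replicate 4 (0.72). RafGOF NotchDN was above RafGOF NotchIC by 1.17 (adjusted p = 0.00507).

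The alpha chain LanA was higher by 1.39 in RafGOF NotchDN (adjusted p = 0.000367) and 0.91 in RafGOF (adjusted p = 0.0102). The gamma chain LanB2 was higher by 0.63 in RafGOF NotchDN, and trol, the perlecan gene, by 0.66 in RafGOF NotchDN and 0.49 in RafGOF. In RafGOF NotchIC, Pxn, a peroxidase of the basement membrane, was higher than WT by 0.57 (adjusted p = 0.0218) and higher than RafGOF by 0.61 (adjusted p = 0.0486). Between both Notch groups trol was higher with NotchDN by 0.64 (adjusted p = 0.02), and the other laminin alpha chain, wb, was at -0.49 (adjusted p = 0.0133). That made 2 ligands higher and 1 lower (4 and 3 with the replicate block), against 6.09% and 5.47% of all genes. In RafGOF NotchDN minus RafGOF none passed by limma (2 at an unadjusted p under 0.05, and 3 higher with the replicate block). The calls of LanB2 in RafGOF NotchDN, trol in RafGOF, Pxn in both comparisons, and trol and wb between both Notch groups each ended on leaving out some single array, with adjusted p up to 0.167. The Pxn call against RafGOF did so for every one of the 8 arrays compared. Without the 4 arrays numbered 2, trol in RafGOF (0.47, adjusted p = 0.111), trol between both Notch groups (0.60, adjusted p = 0.0777) and Pxn against WT (0.48, adjusted p = 0.0556) and against RafGOF (0.60, adjusted p = 0.133) did not pass.

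**Figure D4:**
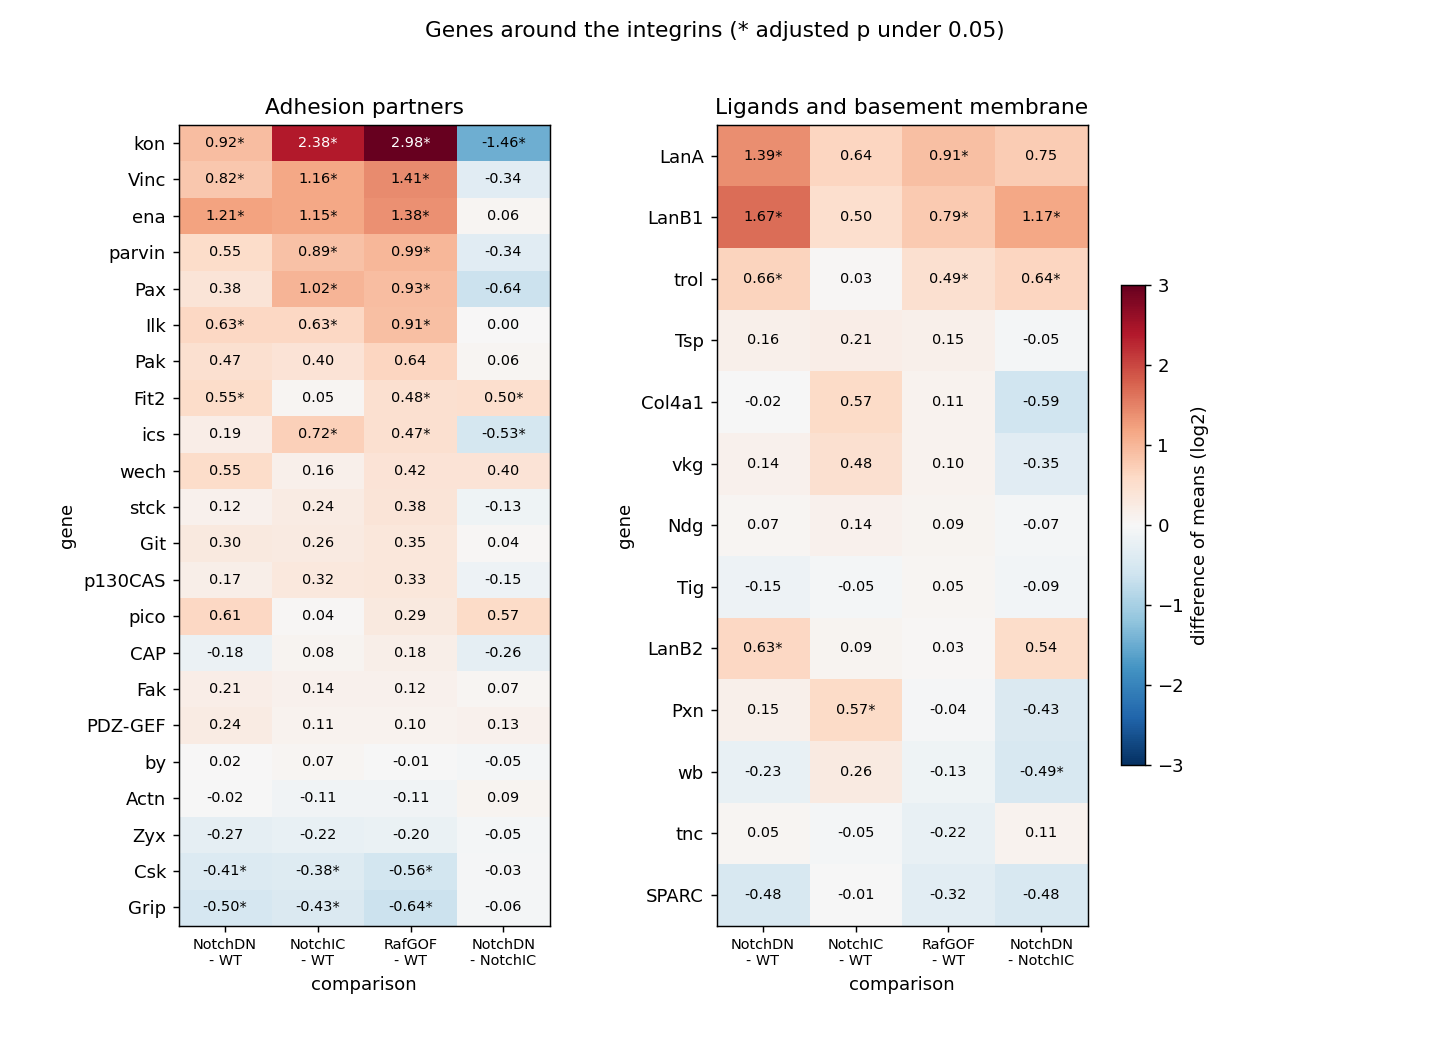
Difference in signal (log2) of the partner and ligand genes in 4 comparisons, with 1 row per gene and 1 column for each transgenic group minus WT and for RafGOF NotchDN minus RafGOF NotchIC. An asterisk marks a call. The gene kon is at 2.98 in RafGOF minus WT and at -1.46 between both Notch groups, and LanB1 is at 1.67 in RafGOF NotchDN minus WT.

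Of the 42 calls made on partner and ligand genes over the 6 comparisons, 20 were lost when some single array was left out and 11 without the 4 arrays numbered 2, and 23 were lost in at least 1 setting. The calls of Vinc, those of LanA and those of Grip in RafGOF and in RafGOF NotchDN were among those that held in every setting run. The summed visceral muscle signal was lower in all 3 transgenic groups than in WT, and the summed progenitor signal was higher in all 3. The part of either in the values of scb, mys, rhea and kon was not tested.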

How the data were processed

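RNA of 16 female midgut samples was hybridised to Affymetrix Drosophila arrays, 1 array per sample. The deposited values are log2 signals per probe set made by the authors with RMA, per the submitters' processing notes. Which RMA software was used, and which version, the sources used here do not give. RMA includes background correction, quantile normalisation and summarising of probes, which compresses differences of dim probe sets, and no further normalisation was applied. Leaving out 183 Affymetrix controls left 18769 probe sets, of which 13647 had 1 gene symbol in the supplied platform annotation, 402 several and 4720 none.

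The linear model, fitted to the 16 arrays with limma (version 3.58.1, under R version 4.3.3), had a term for each group and 12 residual degrees of freedom. Variances were moderated by empirical Bayes, and p-values of each of the 6 comparisons were adjusted by Benjamini and Hochberg's method. Comparisons with WT share the WT arrays, and those with RafGOF the RafGOF arrays. Precision is limited by there being 4 arrays per group. The members, gene lists and tests were chosen with earlier results of these data known. All member probe sets were described. Up to 5 called genes per direction and comparison were named from the partner and ligand lists, each by its brightest probe set over the 16 arrays, and the 5 genes most correlated with scb, mys, Itgbn and rhea among 5288 genes with a mean of log2 5 or above. Ilk, Fit2 and ics are also given in groups where they were not among these 5, which was decided after their values were seen. Where counts of calls by gene were set against all genes, those were the 11982 genes with a probe set of their own.

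The labels do not say what a replicate number stands for. Arrays with the same number were compared by their deviations from the group means, whose correlations were 0.127 to 0.594 in RafGOF with WT, 0.155 to 0.668 for RafGOF NotchDN and WT, 0.494 to 0.785 for RafGOF NotchDN and RafGOF, 0.104 to 0.528 for RafGOF NotchIC and RafGOF and 0.157 to 0.529 for both Notch groups, above the minimum of 0.1 set for pairing. For RafGOF NotchIC and WT they ran from 0.0489 to 0.574, so these were not taken as paired. In every comparison but RafGOF NotchDN with RafGOF, some array correlated more with an array of another number. RafGOF NotchIC replicate 3 did so with RafGOF (0.441 against 0.104), and RafGOF NotchDN replicate 4 with RafGOF NotchIC (0.445 against 0.157). Passing the minimum thus does not settle that the number marks a pairing. The alternatives were a replicate block, only probe sets of log2 5 or above, renewed quantile normalisation, median centring, a variance trend, only both groups compared, array weights, 1 probe set per gene, and leaving out single arrays or all 4 numbered 2. The fit was tested on simulated data.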

Additional observations from a re-analysis of the deposited data

Results flagged for a closer look

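Dixon's test was run on each of the 10 probe sets in each of the 4 groups, 40 in all, and 2 held an array far from the other 3. Chance flags about 1 in 20. The signal of if on RafGOF replicate 4 was 8.16 (log2), against 7.01 to 7.16 on the other RafGOF arrays, a gap of 0.868 of the range. The signal of ItgaPS5 on WT replicate 2 was 4.37, against 4.57 to 4.61 on the other WT arrays, a gap of 0.847 of the range.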

How the results depend on the processing

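The number of member probe sets called was 8 in RafGOF NotchDN minus WT and 5 without the 4 arrays numbered 2. In RafGOF NotchDN minus RafGOF it was 0, and 1 with the replicate block or with array weights. In RafGOF NotchDN minus RafGOF NotchIC it was 1, but 3 with the replicate block and 2 with array weights. Leaving out single arrays gave 7 to 8 in RafGOF minus WT, 6 to 7 in RafGOF NotchDN minus WT, 4 to 6 in RafGOF NotchIC minus WT, 0 to 1 in RafGOF NotchDN minus RafGOF (1 without RafGOF replicate 1), 0 in RafGOF NotchIC minus RafGOF, and 1 to 2 between both Notch groups (2 without RafGOF NotchIC replicate 4). With RafGOF NotchIC and WT, whose numbers did not pair the arrays, the block gave 8 calls in place of 6. The block changed no other member call than those given with it. Over all probe sets the block moved the calls in RafGOF minus WT to 5509 and array weights to 6129 (3578 without), and in RafGOF NotchIC minus WT to 4347 and 3664 (2392). Array weights gave 6066 in RafGOF NotchDN minus WT (3836). RafGOF NotchDN minus RafGOF had 204 calls, but 792 with the block, 1312 with array weights, 134 median-centred, 27 with only both groups and 129 without the arrays numbered 2. RafGOF NotchIC minus RafGOF had 440, but 1232 with the block, 1326 with array weights, 212 with only both groups and 114 without the arrays numbered 2. Both Notch groups differed in 1637, but in 3500 with the block and 3211 with array weights. With single arrays left out, the calls over all probe sets came to 102 to 232 in RafGOF NotchDN minus RafGOF, 201 to 416 in RafGOF NotchIC minus RafGOF, 989 to 1638 between both Notch groups and 1504 to 2598 in RafGOF NotchIC minus WT. The cause of these shifts was not tested.

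Of 480 values of single members with 1 array left out, 423 kept direction and side of the threshold, 5 gained a call, 20 lost one and 32 changed sign. Of 522 under other settings these were 489, 15, 5 and 13. No value that changed sign had been called. With array weights, ItgaPS5 was at -0.08 in RafGOF minus WT. In RafGOF NotchDN minus RafGOF, array weights gave 0.07 and 0.02 for mys (dimmer and brighter) and 0.06 for mew (dimmer), which was at 0.01 after renewed quantile normalisation and at 0.04 without the arrays numbered 2. Without those arrays, RafGOF NotchIC minus RafGOF was 0.03 for scb and 0.04 and 0.09 for mys (dimmer and brighter). Between both Notch groups mys (dimmer) was at 0.09 after renewed quantile normalisation and 0.23 with array weights, mys (brighter) at 0.13 with array weights and rhea at 0.02 after quantile normalisation. With single arrays left out, values that changed sign spanned -0.07 to 0.17 for ItgaPS5 in RafGOF minus WT, and -0.22 to 0.06 for Itgbn and -0.09 to 0 for ItgaPS5 in RafGOF NotchDN minus WT. In RafGOF NotchDN minus RafGOF they spanned -0.44 to 0.09 for mys (dimmer), -0.32 to 0.25 for mew (dimmer), -0.19 to 0.04 for ItgaPS5 and -0.14 to 0.24 for rhea. In RafGOF NotchIC minus RafGOF they spanned -0.33 to 0.10 for scb, -0.43 to 0.10 and -0.32 to 0.13 for mys (dimmer and brighter), -0.01 to 0.38 for Itgbn and -0.05 to 0.33 for rhea. Between both Notch groups they spanned -0.19 to 0.23 and -0.29 to 0.05 for mys, -0.08 to 0.32 for ItgaPS4 and -0.16 to 0.03 for rhea. The counts of partner and ligand genes under all these settings were added after the data were seen, and in RafGOF NotchIC minus WT the block gave 8 partners higher and 2 lower and 5 ligands higher.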

Other observations

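Other marker lists were measured as levels of tissues that a dissected midgut can carry. Of 7 enteroendocrine markers 3 were lower than WT in RafGOF NotchDN, 5 in RafGOF NotchIC and 3 in RafGOF, and of 8 enterocyte markers 3, 3 and 6. Of 6 Malpighian tubule markers 4, 2 and 5 were lower, of 6 tracheal markers 2, 0 and 2, of 6 fat body markers 1, 0 and 1, and of 10 hemocyte markers 1, 2 and 1. Of 7 progenitor markers 6 were higher than WT in RafGOF NotchDN, 3 in RafGOF NotchIC and 5 in RafGOF. Of all genes, 12.1% were called lower than WT in RafGOF NotchDN, 6.77% in RafGOF NotchIC and 10.1% in RafGOF, and 14.6%, 9.98% and 14.9% higher, so that counts of 1 in 6 or 1 in 10 lie near the background. No marker of the other 7 lists was called higher than WT in any of the 3 groups.

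Within groups, the deviations of Itgbn and of the summed adhesion partners correlated at 0.919 and those of scb and the same sum at 0.9 over the 16 arrays, as a description. RafGOF replicate 4 had the highest signal of its group for 9 of the 10 member probe sets, all but the dimmer one of mew.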
